A study of Mus musculus with 1392 samples.

Results

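The chromatin around 5 myeloid regulator genes, Spi1, Cebpa, Irf8, Gfi1 and Csf1r, was compared between old and young Vwf-positive haematopoietic stem cells by single-cell ATAC-seq. In this assay a transposase cuts accessible DNA and adds sequencing adapters, so that counts at a region measure how open it is. A peak, meaning a region the authors listed as accessible, was taken when it overlapped 1 of 5 windows given in coordinates of the mouse build mm9. These were chromosome 2 from 90915000 to 90965000 for Spi1, chromosome 7 from 35850000 to 36050000 for Cebpa and its distal downstream enhancer, chromosome 8 from 123180000 to 123400000 for Irf8, chromosome 5 from 108100000 to 108200000 for Gfi1, and chromosome 18 from 61250000 to 61300000 for Csf1r. The rule found 80 of the 115295 peaks of the table, with 8 in the Spi1 window, 24 in the Cebpa window, 26 in the Irf8 window, 14 in the Gfi1 window and 8 in the Csf1r window. The rule used positions alone, with no measured value.

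The cells were bone marrow cells of C57BL/6 mice, either old or young, and carried no other labelled treatment or allele. Both ages were sorted as LSK cells (without lineage markers, with Sca-1 and Kit) that were CD150+CD48-CD34-Vwf+. The Vwf gene, for the clotting protein von Willebrand factor, marks platelet-biased stem cells. There were 1060 old cells in 3 numbered sets and 332 young cells in 2 numbered sets. The titles number the sets and do not say if each comes from its own animal, pooled animals or a plate. Each set was taken as 1 replicate, so p-values reflect how much sets vary, which may be technical in origin. Every set was of 1 age, and effects of age and of preparation cannot be told apart.

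Spi1 encodes PU.1, an ETS-family transcription factor that directs myeloid and B cell development, and in mouse its expression depends on a promoter together with a distal upstream element. Cebpa encodes C/EBPalpha, a leucine zipper factor required for granulocytes, whose level in stem and progenitor cells depends on an enhancer downstream of the gene. Irf8 encodes an interferon regulatory factor that pairs with PU.1 in monocytes and dendritic cells. Gfi1 encodes a zinc finger repressor that favours granulocytes and restrains stem cell cycling. Csf1r encodes the receptor for macrophage colony-stimulating factor, a target of PU.1 that marks monocytes and macrophages.

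RefSeq promoter entries were found for Cebpa, Irf8 and Gfi1, 3 of the 5 genes, and they are shown because the promoter is 1 of the elements from which these genes are regulated. Each runs from 250 bases before to 50 bases after the gene's start, 5′ to 3′ on the gene's strand, in build GRCm38.p6, which is not the build of the peaks. No peak was therefore matched to them by coordinates. Capitals mark matches to any of 4 motifs searched on both strands, which were GAGGAA (a core of PU.1 sites), TTGCNNCAA (C/EBP), AAATCA (a core of GFI1 sites) and TATAAA (the TATA box).
Cebpa, chr7:35119043-35119342, plus strand: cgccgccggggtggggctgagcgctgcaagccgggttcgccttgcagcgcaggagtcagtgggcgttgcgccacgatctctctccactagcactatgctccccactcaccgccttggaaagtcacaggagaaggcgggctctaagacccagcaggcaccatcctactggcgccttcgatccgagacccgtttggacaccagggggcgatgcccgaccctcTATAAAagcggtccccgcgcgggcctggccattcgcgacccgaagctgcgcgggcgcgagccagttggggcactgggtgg
Irf8, chr8:120736108-120736407, plus strand: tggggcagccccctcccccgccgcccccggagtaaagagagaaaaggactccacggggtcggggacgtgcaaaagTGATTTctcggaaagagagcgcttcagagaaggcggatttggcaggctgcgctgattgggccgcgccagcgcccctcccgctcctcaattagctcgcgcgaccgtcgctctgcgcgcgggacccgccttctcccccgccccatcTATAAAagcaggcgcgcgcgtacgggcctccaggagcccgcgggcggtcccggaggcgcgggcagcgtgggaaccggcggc
Gfi1, chr5:107725756-107726055, minus strand: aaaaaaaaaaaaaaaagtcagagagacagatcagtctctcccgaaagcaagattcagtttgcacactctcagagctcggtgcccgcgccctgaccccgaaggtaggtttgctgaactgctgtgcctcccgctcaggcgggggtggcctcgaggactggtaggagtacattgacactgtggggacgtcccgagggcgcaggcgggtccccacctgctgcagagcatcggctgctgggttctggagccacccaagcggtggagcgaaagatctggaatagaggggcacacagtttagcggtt

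The Cebpa and Irf8 promoters each held TATAAA, beginning 30 and 31 bases before the start, a match found in 13.6% of the 32851 promoters of the table. The Irf8 promoter also held AAATCA on the minus strand, 175 bases before the start, which 14.0% of promoters hold. No other match lay in these 3 windows, against 28.3% of promoters with GAGGAA and 2.08% with TTGCNNCAA. No 2 matches overlapped. The promoters were 67.3% (Cebpa), 70.0% (Irf8) and 58.0% (Gfi1) G and C, against a median of 52.7% over the table, and held 29, 38 and 16 CG dinucleotides, against a median of 7. A match describes letters and does not show that a factor binds there.

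Depth differed among sets of 1 age as well as between ages. The sum of counts per set was 4181770 (old 1), 2125677 (old 2) and 1640887 (old 3) for old cells, and 1159957 (young 1) and 2589894 (young 2) for young cells. The median count per cell ran from 3604.5 to 9623 in the old sets and was 6133 and 11807 in the young sets, and 27.8% of cells in old 1 had under 2000 counts. Levels are given as CPM, counts per 1000000 of the set's counts in tested peaks after scaling by trimmed mean of M-values (TMM), so that sets of unequal depth can be set side by side. The label of the sort was not checked against marker genes, since no gene annotation of mm9 was used here.

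None of the peaks in the 5 windows differed between old and young cells past the threshold. A peak was called when its Benjamini-Hochberg adjusted p, over all 58167 peaks with enough counts, was under 0.05 in edgeR's quasi-likelihood test, with the counts of each set summed. Of the 80 peaks, 47 were tested and 0 were called, while 3.17% of all tested peaks were called (1.39% higher in old and 1.78% lower in old, or 808 and 1036 peaks). Scaled by library totals the split over the whole table was 1051 higher and 770 lower, with 0 peaks of the windows called. At that rate few calls would be found among so small a number of peaks, so the 0 does not set the windows apart from the table. At an unadjusted p under 0.05 there were 4 of the 47, against 15.4% of all tested peaks, and DESeq2 called 0 with 2 at an unadjusted p under 0.05. The median log2 fold change of the 47, old over young, was -0.11, with 21 peaks above and 26 below 0, and the median over all tested peaks was -0.01.

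Separation of the sets was also set beside the background, without a test. All 3 old sets lay above both young sets at 4 of the 47, a lower share than the 16.4% of all tested peaks. They lay below both at 9 of the 47, near the 16.7% of all tested peaks. Of those 9, the peak at 35871255 was separated by a margin of under 0.1 CPM. The 4 peaks with all old sets above had log2 fold changes of 0.38 at 90941582 (Spi1), 0.38 at 35865611 (Cebpa), 0.56 at 35999655 (Cebpa) and 0.68 at 123352170 (Irf8). Among the 9 with all old sets below, those not described further on had -0.72 at 35909830 (Cebpa), -0.64 at 123209978 (Irf8) and -0.81 at 123249137 (Irf8). The 95% interval of the fold change lay within 2-fold in both directions for 19 of the 47. For the other tested peaks the interval reached a doubling or a halving, so a change of that size was not excluded.

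**Figure D1:**
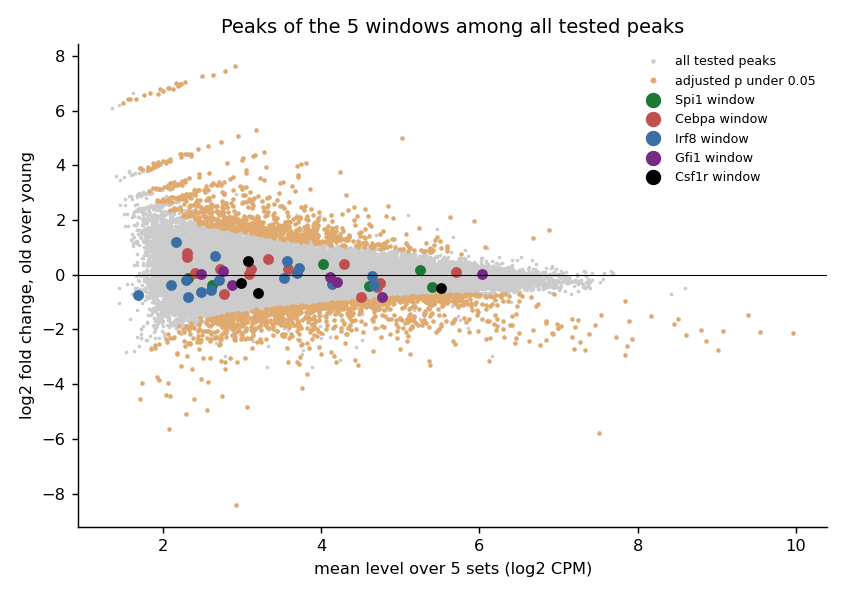
Small points are the 58167 tested peaks, with the mean level over 5 sets on a log2 CPM axis and the log2 fold change, old over young, on the vertical axis. Orange points had an adjusted p under 0.05, and large points are the 47 tested peaks of the 5 windows, none of which is among the orange ones.

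The 33 peaks left out of the test held 4 to 52 counts over all cells, against 42 to 663 in the tested peaks. Of these 33, 19 were under 300 bp wide, against 2 of the 47 tested. No young cell had a count at 4 of the 33, which held 4 to 6 counts in old cells, and every one of the 33 had a count in old cells. Since the number of cells and the depth of the ages differ, no fold is given for peaks with so few counts.

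Summed over each window, old and young cells were within the spread of the fit for all 5 windows. No peak was assigned to a gene, so the sum of a window may include elements of neighbouring genes. A peak named with a gene is a peak of that gene's window. In build GRCm38.p6 the protein-coding neighbours were Slc39a13 and Mybpc3 for Spi1, Gm45095 and Slc7a10 for Cebpa, and Cox4i1 and Foxf1 for Irf8. They were Rpap2 and Evi5 for Gfi1, and Pdgfrb and Hmgxb3 for Csf1r. Whether any peak, the strongest ones included, belongs to a neighbour was not tested. In such sums, fewer open cells and less signal per open cell cannot be told apart. Values are in the order old 1, old 2, old 3 and then young 1, young 2 throughout. At Spi1 the sum was 124.8, 111.5 and 148.7 CPM for old cells, and 143.5 and 140.9 CPM for young cells. Old 3 lay above both young sets and the other old sets below them, so the ages overlapped. The log2 fold change was -0.15 with a standard error of 0.19 and a 95% interval of -0.54 to 0.24 (edgeR adjusted p = 0.777).

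The Cebpa window held 224.8, 227.1 and 245.04 CPM in the old sets, and 228.1 and 249.9 CPM in the young sets. This was the smallest difference of the 5 windows, with a log2 fold change of -0.05, a standard error of 0.19 and an interval of -0.42 to 0.33 (edgeR adjusted p = 0.945). The interval corresponds to 0.745 to 1.26 times the young level. The Irf8 window held 209.04, 175.04 and 169.3 CPM in the old sets, and 171.3 and 220.8 CPM in the young sets. Here the sets of 1 age differed by more than the ages, and old 1 and young 2, the deepest sets of their ages, were both high. The log2 fold change was -0.09 with an interval of -0.48 to 0.30 (edgeR adjusted p = 0.875).

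The Gfi1 and Csf1r windows had both young sets above all old sets. Such separation is common, as 16.7% of all tested single peaks had all old sets below both young sets. Its share over sums of other windows was not computed. Gfi1 had 146.9, 135.97 and 161.4 CPM in the old sets, and 174.3 and 171.9 CPM in the young sets. Its log2 fold change was -0.23 with a standard error of 0.19 and an interval of -0.61 to 0.16 (edgeR adjusted p = 0.617). Csf1r had 71.1, 66.2 and 77.03 CPM in the old sets, and 84.7 and 90.6 CPM in the young sets. Its log2 fold change was -0.30 with a standard error of 0.20 and an interval of -0.70 to 0.10 (edgeR adjusted p = 0.490). Permuting the set labels, in an exact two-sided test, gave p = 0.4, 0.5, 0.6, 0.2 and 0.1 for Spi1, Cebpa, Irf8, Gfi1 and Csf1r, where 0.1 is the smallest that 3 sets against 2 allow. In the edgeR fit with each window as 1 summed feature, 3.17% of 58125 features were called and none of the 5 windows was among them.

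**Figure D2:**
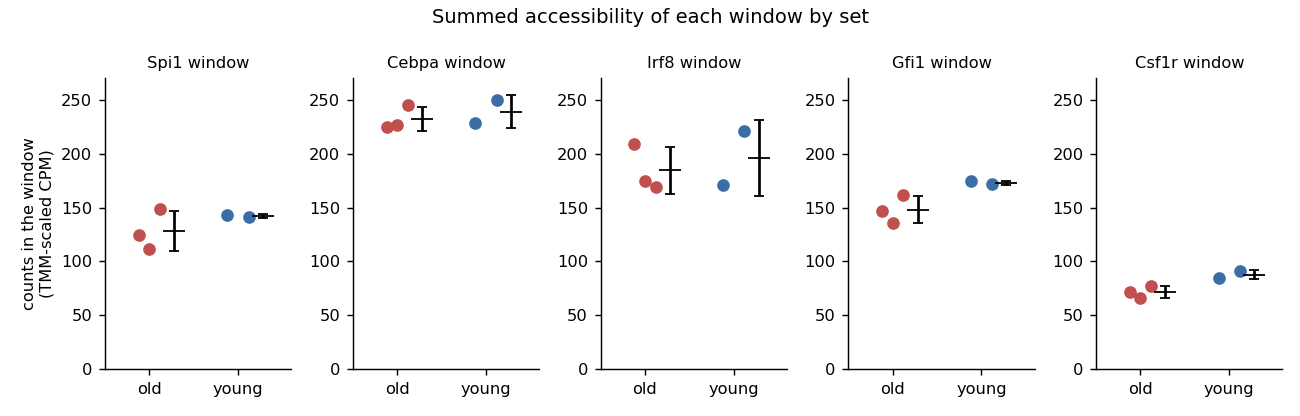
Summed level of each window in TMM-scaled CPM, 1 point per set, with old sets left of young sets and the mean with its SD beside them (3 old and 2 young sets). Old and young points overlap for Spi1, Cebpa and Irf8, and all old points lie below the young points for Gfi1 and Csf1r. Of all tested single peaks, 16.7% have all old sets below both young sets.

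The windows were rich in peaks. They held 11.8 to 16.0 peaks per 100 kb, and each held more peaks than about 90% of genome tiles of its own width that contain a peak (90.2% to 91.4%). Their summed level ranked differently. Spi1 lay above 97.0% of the 31615 tiles of 50 kb and Gfi1 above 92.1% of those of 100 kb, while Cebpa (88.2%), Csf1r (87.2%) and Irf8 (79.02%) ranked lower. The peaks had a median width of 450.5 bp, against 417 bp over all peaks, and a median of 53.5 counts over all cells, against 46. Of the 47 tested peaks, 22 were at or above the median level of tested peaks and 5 were in the top 10%.

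The windows differed in how far 1 peak carried their signal. The strongest peak held a mean of 58.4% of the window's counts at Csf1r and 41.5% at Gfi1, 31.4% at Spi1 and 22.3% at Cebpa. At Irf8 the strongest peak by mean CPM held 13.3% and the next 13.4%, so the signal was spread along the window. Mean levels over the 5 sets ran from 0.374 to 42.4 CPM among the Spi1 peaks, from 0.461 to 52.4 among the Cebpa peaks, from 0.394 to 25.4 among the Irf8 peaks, from 0.262 to 65.2 among the Gfi1 peaks and from 0.541 to 45.7 among the Csf1r peaks.

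**Figure D3:**
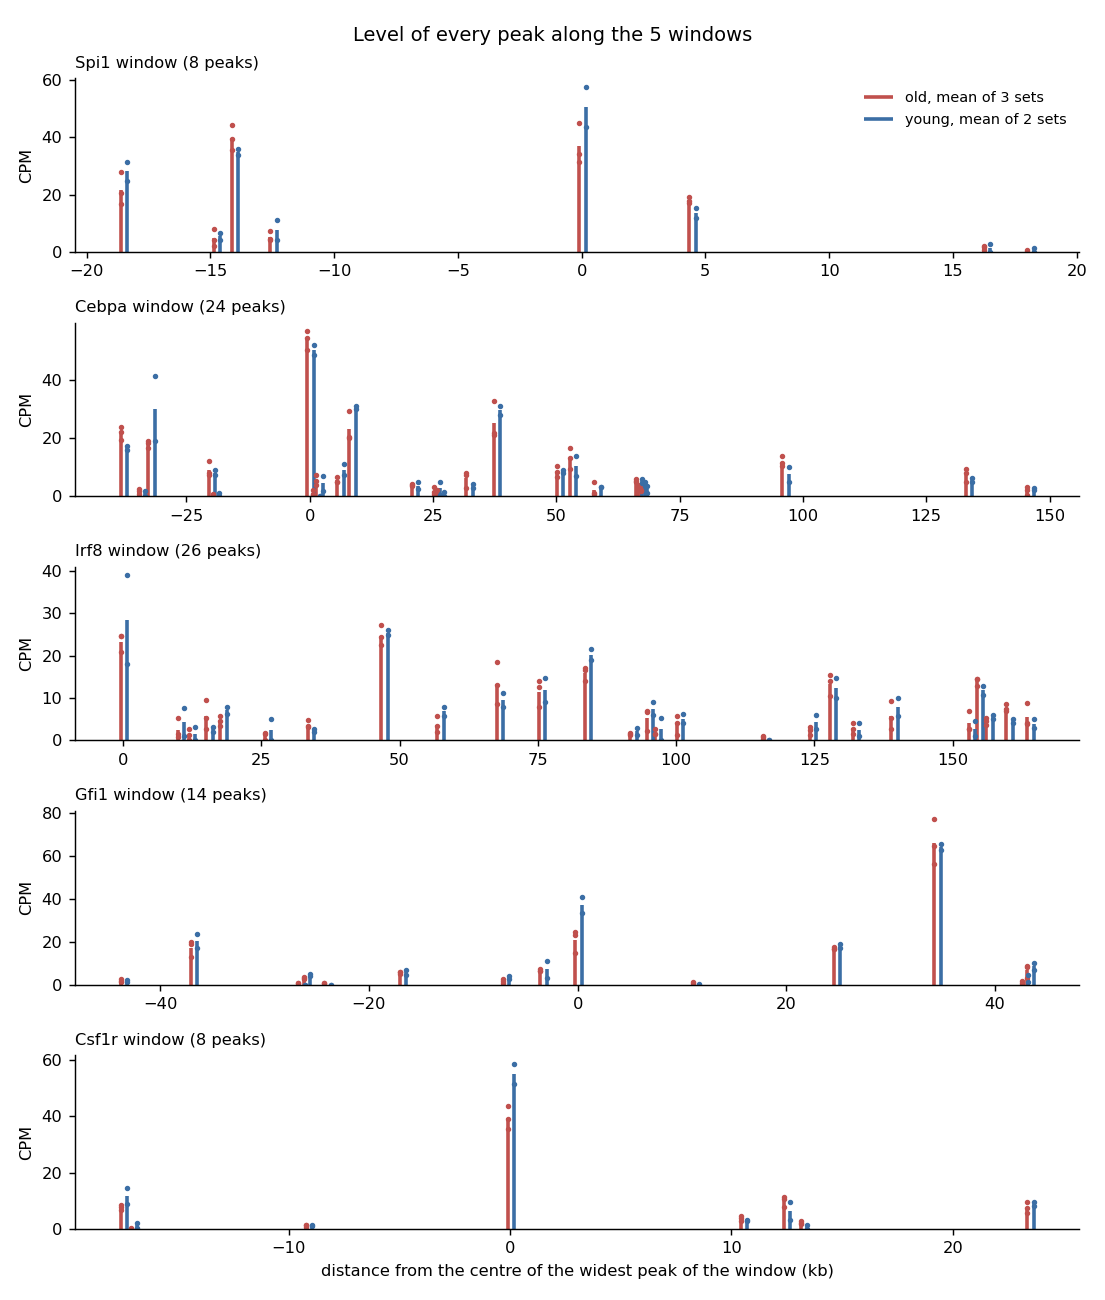
Level of all 80 peaks in CPM against the distance in kb from the centre of the widest peak of the window, with bars for the mean of the 3 old sets (left of each pair) and of the 2 young sets, and points for single sets. The peak with the highest mean is the same in both ages at Cebpa, Gfi1 and Csf1r but not at Spi1 and Irf8, and the widest peak of the Gfi1 window at 0 kb has all old points below the young points.

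In the Spi1 window the 2 strongest peaks, by mean over the 5 sets, lay 14.05 kb apart, centre to centre. The stronger, 1808 bp wide at 90936412 to 90938220, had 34.4, 31.3 and 45.2 CPM in the old sets, and 57.8 and 43.5 CPM in the young sets. Old 3 lay above young 2, so the ages overlapped. The log2 fold change of the wide peak was -0.44 and its standard error 0.23 (edgeR adjusted p = 0.347), with -0.25 without young 1. Cells thinned to 1 depth, without the shallower cells, gave 0.02 for it, an alternative that keeps far fewer counts.

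The other, 547 bp wide at 90922993 to 90923540, had 35.7, 39.6 and 44.5 CPM in the old sets, and 33.9 and 35.9 CPM in the young sets. It lies on the lower-coordinate side of the wide peak, and it was about as strong as the wide peak in old 1 and old 3. This peak had a log2 fold change of 0.17 with an interval of -0.30 to 0.63 (edgeR adjusted p = 0.793), and 0.29 without old 1. The log2 ratio of the wide peak to this one was -0.05, -0.34 and 0.02 in the old sets, and 0.77 and 0.28 in the young sets. The ratio was lower in every old set than in either young set, a pattern noticed after the values were seen and not tested. The ratio of the 2 strongest peaks also separated the ages at Gfi1, but the ages overlapped in it at Cebpa, Irf8 and Csf1r. How often such ratios separate the ages over the whole table was not computed. The peak at 90918330, 909 bp wide and next in level, had 20.7, 16.7 and 27.9 CPM in the old sets, and 24.9 and 31.4 CPM in the young sets, which overlapped, with a log2 fold change of -0.43 (edgeR adjusted p = 0.465). It was -0.19 without young 2 and -0.26 without old 2.

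In the Cebpa window the strongest peak was 1767 bp wide at 35903032 to 35904799. It had 50.4, 56.8 and 54.5 CPM in the old sets, and 51.8 and 48.5 CPM in the young sets, nearly the same in all 5. The difference was 0.10 on the log2 scale with an interval of -0.32 to 0.53 (edgeR adjusted p = 0.872), and 0.19 without old 1. The second, 774 bp wide at 35941283 to 35942057, lay 37.8 kb from it towards higher coordinates. The window was set to take in the downstream enhancer, and whether this peak is that element was not tested. It had 21.5, 20.8 and 32.5 CPM in the old sets, and 27.9 and 31.03 CPM in the young sets.

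Old 3 was the highest of the 5 sets at that second peak and old 1 and old 2 were the lowest, so the ages overlapped. The second peak had a log2 fold change of -0.29 with an interval of -0.81 to 0.24 (edgeR adjusted p = 0.652), and it was -0.14, -0.17 and -0.17 without old 1, old 2 and young 2. Between these peaks, the one at 35911851 to 35913068, 1217 bp wide, averaged 23.1 ± 5.33 CPM in old sets (SD, n = 3) and 30.4 ± 0.761 CPM in young sets (SD, n = 2). All old sets were below both young sets there, with a log2 fold change of -0.44 (edgeR adjusted p = 0.435).

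The smallest p in the Cebpa window belonged to the peak at 35871255 to 35872076, 821 bp wide. It had 18.9, 18.2 and 16.6 CPM in the old sets, and 18.9 and 41.3 CPM in the young sets. Only young 2 stood apart. Young 1, at 18.93 CPM, was nearly level with the highest old set, at 18.88 CPM. The log2 fold change was -0.83 with a standard error of 0.28 (edgeR unadjusted p = 0.00375, adjusted p = 0.0846). One young 2 cell alone held 37 of the 243 counts of this peak, and the 5 highest cells held 37.4% of them, the largest such share among the 47 tested peaks. Counting each cell once gave a log2 fold change of 0.10 (edgeR adjusted p = 0.947). Without young 2 it was -0.04, and without young 1 it was -1.18 (edgeR adjusted p = 0.00827), the 1 call of a peak of these windows under any alternative.

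Of the 14 tested Cebpa peaks, 10 had a fold change above 0 and 4 below, with a median of 0.15 on the log2 scale, although the sum of the window was slightly lower in old cells. The peak at 35871255 was the 1 Cebpa peak with an unadjusted p under 0.05. The highest fold change was 0.80, with an interval of -0.50 to 2.10, at the peak beginning at 35935921, which rested on 37 old and 10 young counts.

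In the Irf8 window the strongest peak, 1541 bp wide at 123191474 to 123193015, had 24.7, 20.8 and 24.6 CPM in the old sets, and 17.9 and 39.0 CPM in the young sets. The young sets were the lowest and the highest of the 5, so this peak showed no order by age. Its log2 fold change was -0.38 (edgeR adjusted p = 0.525), but 0.41 without young 2 and -0.73 without young 1. The second, 728 bp wide at 123238993, was close to even across sets. It had 22.6, 24.5 and 27.2 CPM in the old sets, and 24.9 and 26.03 CPM in the young sets, a log2 fold change of -0.07 (edgeR adjusted p = 0.943).

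The third Irf8 peak, 1101 bp wide at 123275617, had 17.05, 16.7 and 13.9 CPM in the old sets, and 18.9 and 21.5 CPM in the young sets. All old sets were lower, with a log2 fold change of -0.35 and an interval of -0.94 to 0.24 (edgeR adjusted p = 0.618), and -0.20 without young 2. The smallest p of the window was at a weak peak, 316 bp wide at 123207528 to 123207844. It had 9.44, 5.21 and 2.66 CPM in the old sets, and 1.99 and 3.14 CPM in the young sets, and old 3 lay between the young sets. Its log2 fold change was 1.21 with a standard error of 0.63 (edgeR unadjusted p = 0.0423, adjusted p = 0.301), and it rested on 50 old and 9 young counts. Of its counts, 36 came from old 1, and without old 1, or without old 2, it had too few counts to be tested. The same held when each cell was counted once, when cells were thinned, and without cells under 2000 counts. Over the 16 tested Irf8 peaks, 5 had a fold change above 0 and 11 below, with a median of -0.20 on the log2 scale.

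In the Gfi1 window the strongest peak and the widest peak parted. The strongest, 1067 bp wide at 108187983 to 108189050, had 56.1, 64.6 and 77.03 CPM in the old sets, and 62.8 and 65.5 CPM in the young sets. The young sets lay within the range of the old sets, and the log2 fold change was 0.02 with an interval of -0.40 to 0.44 (edgeR adjusted p = 0.982). It had a count in 418 of 1392 cells and a level above 97.7% of tested peaks.

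The widest, 2261 bp at 108153000 to 108155261, lay 34.4 kb away. It had 23.1, 14.6 and 24.6 CPM in the old sets, and 40.8 and 33.2 CPM in the young sets. Every old set was below both young sets, and the mean was 20.7 ± 5.39 CPM in old sets (SD, n = 3) and 37.02 ± 5.40 CPM in young sets (SD, n = 2). The log2 fold change was -0.80 with a standard error of 0.26 and an interval, unadjusted, of -1.32 to -0.28. This was the smallest p of the 47 tested peaks (edgeR unadjusted p = 0.00329), and it missed the threshold after adjustment (adjusted p = 0.0778).

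The 268 counts of the widest Gfi1 peak lay in 189 cells, the highest cell held 7 and the 5 highest held 10.1%. Leaving out 1 set gave log2 fold changes of -0.94 to -0.60, and counting each cell once gave -0.59. Thinning cells to 1 depth gave -0.23 with a standard error of 0.52, the smallest size of any alternative. This peak held 15.7%, 10.7% and 15.2% of the window's counts in the old sets, and 23.4% and 19.3% in the young sets. The log2 ratio of the strongest peak to it was 1.28, 2.15 and 1.65 in the old sets, and 0.62 and 0.98 in the young sets. This share and this ratio rest on the same counts as the fold change and were not tested. The peak at 108116797, the third by level, averaged 17.01 ± 3.84 CPM in old sets (SD, n = 3) and 20.4 ± 4.84 CPM in young sets (SD, n = 2), and its log2 fold change was -0.27 (edgeR adjusted p = 0.722), with -0.10 without old 3, -0.43 without young 1 and 0.08 without young 2.

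In the Csf1r window a single peak dominated, 1686 bp wide at 61267104 to 61268790. It had 39.1, 35.4 and 43.8 CPM in the old sets, and 58.8 and 51.6 CPM in the young sets. All old sets were below both young sets, with a log2 fold change of -0.48 and a standard error of 0.22 (edgeR unadjusted p = 0.0327, adjusted p = 0.268). Its 457 counts lay in 298 cells. The next peak, 524 bp wide at 61250199, had 7.87, 8.34 and 6.64 CPM in the old sets, and 8.97 and 14.4 CPM in the young sets. The old sets were again lower, by a log2 fold change of -0.67 with an interval of -1.42 to 0.08 (edgeR adjusted p = 0.384). Without young 2 this was -0.19.

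The third Csf1r peak, 395 bp wide at 61280211, had 11.3, 7.81 and 10.6 CPM in the old sets, and 2.99 and 9.42 CPM in the young sets. Young 1 alone was low, with 3 counts, and young 2 lay among the old sets. The log2 fold change was 0.49 (edgeR adjusted p = 0.614), with 0.10 without young 1 and 1.76 without young 2. Of the 4 tested Csf1r peaks, 3 had a fold change below 0.

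**Figure D4:**
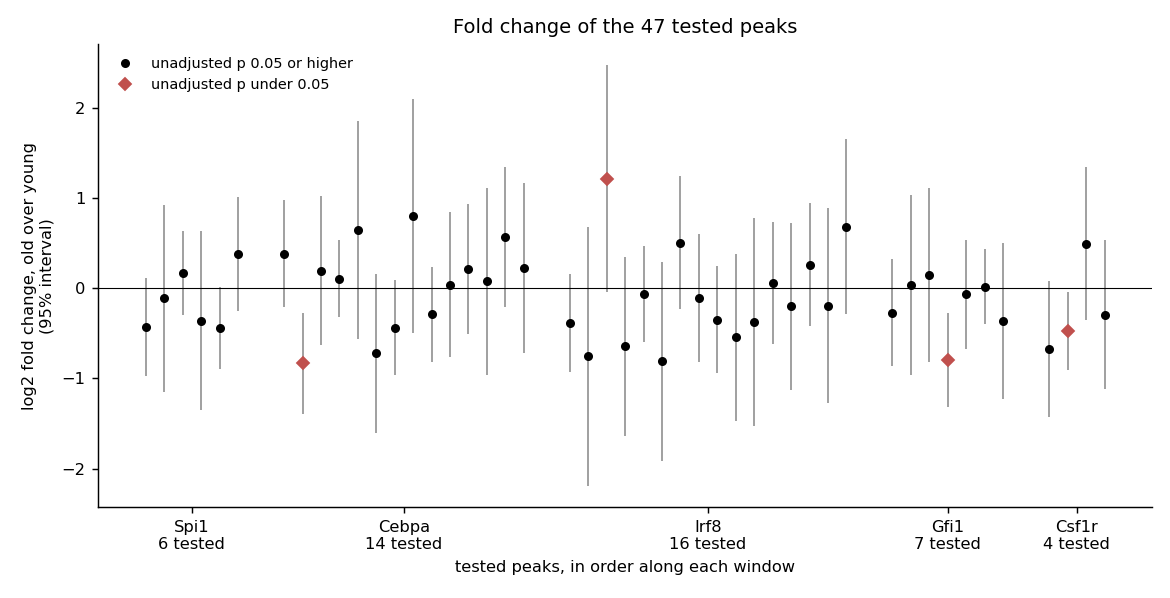
Log2 fold change, old over young, of the 47 tested peaks in order along each window, with unadjusted 95% intervals. Diamonds are the 4 peaks with an unadjusted p under 0.05, of which 3 are below 0 and 1, in the Irf8 window, is above 0, and none had an adjusted p under 0.05.

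Fold changes were also set beside those of peaks of like width in the whole table. Of the 11 tested peaks of 1000 bp and wider, 7 had a fold change below 0 and their median was -0.35 on the log2 scale. Over the whole table, 65.9% of 14128 tested peaks of that width were below 0, with a median of -0.13. Of the 13 peaks from 600 to under 1000 bp, 10 were below 0, with a median of -0.27, against 46.8% below 0 and a median of 0.04 in the whole table. Of the 21 peaks from 300 to under 600 bp, 8 were below 0 and the median was 0.06, against 43.6% and 0.10. The strongest peak of each of the 5 windows was wider than 1000 bp. The part of width in the lower old levels of single wide peaks was not tested.

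The share of cells with a count was compared with every cell thinned to 1906 counts, the 10th percentile, because deeper cells show more peaks. At this depth 19.3% ± 5.10 of old cells (SD, n = 3 sets) and 22.4% ± 2.17 of young cells (SD, n = 2 sets) had a count in the Spi1 window. In single sets this was 13.96%, 19.9% and 24.1% of old cells, and 20.9% and 23.97% of young cells. Old 1 was the lowest set and old 3 the highest, so the ages overlapped (exact two-sided permutation p = 0.5).

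For Cebpa the share was 32.2% ± 1.14 of old cells and 30.1% ± 2.91 of young cells (exact permutation p = 0.4, n = 3 and 2 sets). For Irf8 it was 26.1% ± 2.13 of old cells and 26.9% ± 4.53 of young cells (exact permutation p = 0.8, n = 3 and 2 sets). For Gfi1 it was 23.4% ± 1.99 of old cells and 22.7% ± 1.77 of young cells (exact permutation p = 0.8, n = 3 and 2 sets). For Csf1r it was 12.4% ± 1.06 of old cells and 14.7% ± 2.44 of young cells (exact permutation p = 0.2, n = 3 and 2 sets). The errors are SDs over sets, and no difference of the 5 exceeded the larger of the old and young SDs. Those at Spi1, Cebpa and Csf1r exceeded the smaller one.

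Without thinning, all cells were counted and shares rest on depth as well. In the Csf1r window 29.4% ± 7.53 of old cells and 46.3% ± 17.8 of young cells had a count (SD, n = 3 and 2 sets), and young 2, with the highest median count per cell, had the highest share in all 5 windows. In the Cebpa window, the one with the highest shares, these were 58.02% ± 7.60 of old cells and 71.6% ± 12.99 of young cells.

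**Figure D5:**
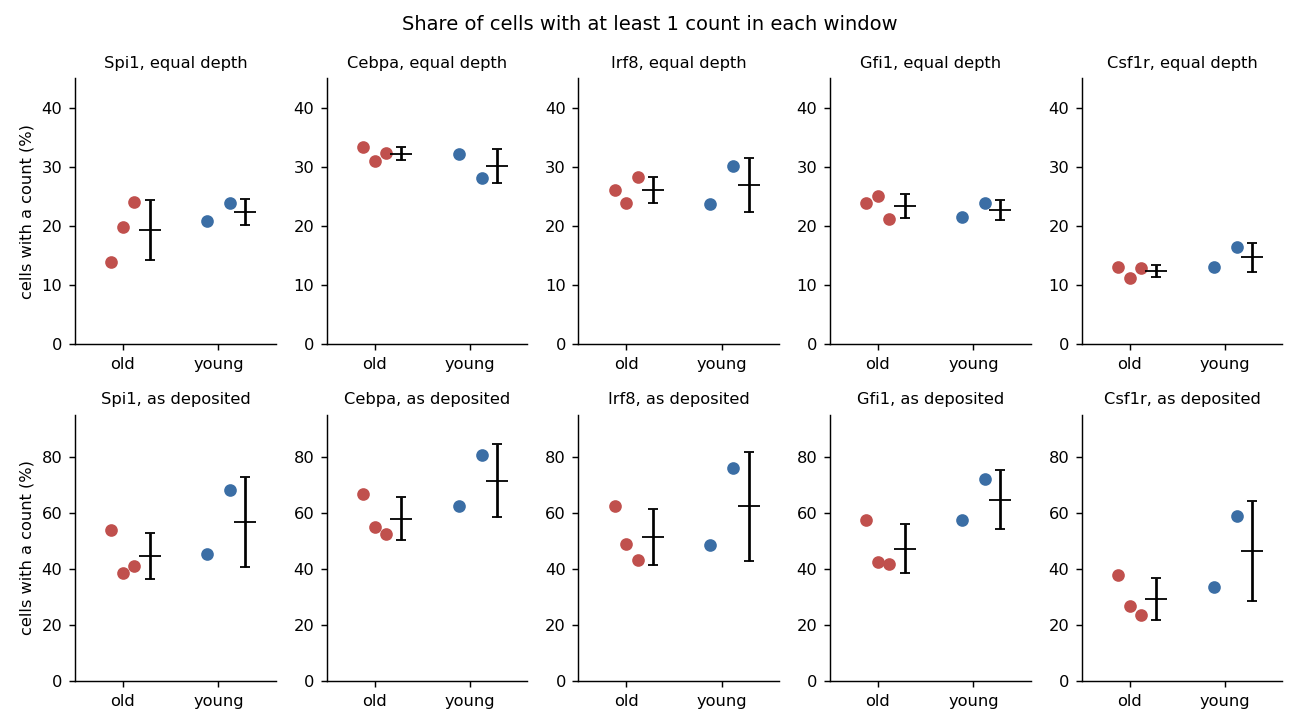
Share of cells with at least 1 count in each window, 1 point per set, with old sets left of young sets and the mean with its SD over 3 old and 2 young sets. The upper row has cells thinned to 1906 counts, with shallower cells left out. The lower row has all cells as deposited, where young 2 is the highest set in every panel.

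Few cells had counts at several of the 5 loci at the thinned depth. A thinned cell had a count in a mean of 1.10, 1.11 and 1.19 of the 5 windows in the old sets, and 1.11 and 1.23 in the young sets. Counts in 3 or more windows were found in 5.86%, 8.72% and 8.82% of old cells, and in 6.21% and 9.59% of young cells. No count in any window was found in 26.6%, 28.3% and 27.1% of old cells, and in 27.1% and 23.97% of young cells. In all 3 measures young 1 lay within the range of the old sets and young 2 just outside it, so the ages overlapped.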

How the data were processed

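The values deposited by the authors are counts for every peak in every cell, and they are whole numbers with no normalization visible in them. Per the submitters' processing notes, mm9, Trim Galore, FastQC, Bowtie2, SAMtools and Picard were used. How peaks were called, on which cells, and how cells were filtered is not given here, and peaks called on all cells together would follow the age with more counts.

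Each column was matched to 1 cell by its title, which also gave age and set number. The sums per set, 1159957 to 4181770 counts, went into edgeR 4.0.16 (R 4.3.3) over the 58167 peaks that passed filterByExpr (minimum count of 10), with TMM factors, robust dispersion (common dispersion 0.0248) and Benjamini-Hochberg adjustment. Standard errors come from the fitted model, and 95% intervals are not adjusted. In a second fit the peaks of each window were replaced by their sum. The fitting was tried on counts simulated at a fixed dispersion, which does not show how it fares with sets that differ in preparation. Windows, members and lists were chosen with earlier results of these data known. Peaks named with values per set are the 3 strongest of each window by mean CPM, any called peak and the one with the smallest p, and the peak at 35935921 was named after its value was seen. Positions are as the table names them, and whether they count from 0 or 1 is not stated. Old 1 and young 1, and old 2 and young 2, share a set number but were not taken as pairs. Their deviations from the group means correlated at -0.0758 and -0.000706. With 2 young sets the deviations of young 1 and young 2 mirror each other, so such values cannot exclude a shared preparation. Alternatives are given in the closing section. Other myeloid genes were not analysed here.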

Additional observations from a re-analysis of the deposited data

How the results depend on the processing

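The alternatives were library totals, DESeq2 1.42.0, no count filter, binarized cells, thinned cells, no cells under 2000 counts, the set number as a block, and each set left out. None of them called a peak of the windows except without young 1, so that leaving out 1 set gave 0 to 1. Of all tested peaks 1844 were called, against 448 with DESeq2, 222 with thinned cells, 1102 with the replicate block (0 of them in the windows), and 776, 989 and 1075 without old 3, young 2 and old 2. Library totals moved the median log2 fold change of all tested peaks by 0.0982. No window sum was called under any alternative run. The Cebpa sum, -0.05 on the log2 scale, was 0.0518 with library totals, 0.0143 binarized, 0.15 thinned, 0.10 for its strongest peak alone and -0.10 to 0.0588 with 1 set left out. The Irf8 sum, -0.09, was 0.0051 with library totals, 0.0306 thinned and -0.25 to 0.15 with 1 set left out. The Gfi1 sum, -0.23, was 0.0526 thinned, 0.0172 for its strongest peak alone and -0.26 to -0.15 with 1 set left out. With 1 set left out Spi1 was -0.23 to -0.04 and Csf1r -0.34 to -0.21. With the replicate block the sums were -0.27 (Spi1), -0.08 (Cebpa), -0.03 (Irf8), -0.29 (Gfi1) and -0.35 (Csf1r). The cause of these sign changes was not tested.

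Old minus young shares of cells, in percentage points, were 2.11 for Cebpa and 0.652 for Gfi1, but -13.6 and -17.5 without thinning and -1.26 and -0.453 with at least 2 counts. That of Csf1r, -2.32, was 0.158 with at least 2 counts. With 1 set left out the shares ran from -5.51 to -0.434 (Spi1), 0.0463 to 4.17 (Cebpa), -4.02 to 2.38 (Irf8), -0.600 to 1.90 (Gfi1) and -4.05 to -0.602 (Csf1r).

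Among single peaks, none of which was called in the main fit, the log2 fold change took the other sign at 90936412 (0.0249 thinned), 35871255 (0.0977 binarized), 35941283 (0.15 thinned), 108187983 (-0.0877 with the replicate block) and 123238993 (0.0323 with library totals, 0.0406 binarized, 0.0022 thinned). With 1 set left out it ran from -0.433 to 0.0777 at 108116797, -0.0699 to 0.166 at 108187983, -0.727 to 0.41 at 123191474 and -0.0985 to 0.0435 at 123238993. Where 1 young set remains, its spread is taken from the old sets. Thinning left 10 peaks of the windows with enough counts to test.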
